A study of Mus musculus with 30 samples.

Results

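Open chromatin of type A spermatogonia (SG-A) in the mouse testis was set directly against that of round spermatids (rST), and pachytene spermatocytes (pacSC) were searched for the regions common to both. The members are the regions of the SG-A peak list on chromosomes 1 to 19, each called listed in rST when it overlapped an rST region by at least 1 bp. They number 85773 of the 88369 regions in the SG-A list, and they were set against 6233 of the 6459 rST regions. The 4 deposited lists of the series hold 185395 regions together. All cells came from the testes of C57BL/6 mice. SG-A were taken on day 8 after birth and profiled in 3 libraries, whereas pacSC and rST came from adults, with 2 libraries each. The other list, of primitive type A spermatogonia (PriSG-A, day 6, 3 libraries), is used only where named. The labels mention no transgene or treatment, and they do not say how many animals entered a library.

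Spermatogonia are the mitotic germ cells from which spermatogenesis starts. Pachytene spermatocytes are in the long stage of meiotic prophase in which paired homologous chromosomes recombine, and round spermatids are the haploid products of meiosis, before histones give way to protamines. ATAC-seq uses the transposase Tn5 to cut accessible DNA, so that a stretch with many insertions marks open chromatin, usually a promoter or an enhancer. Promoters tend to give wide and high stretches, and many distal elements give narrow and low ones.

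Each stage has 1 peak list for all of its libraries, so the spread between replicates could not be measured and no test between stages was made. The intervals below are 95% Wilson intervals for shares, unless another kind is named, and cover counting error only. They treat neighbouring regions as independent. Read depth is unknown, and the number of libraries differed between the stages. The part of depth in any absence from a list was not tested. The authors' signal value of a peak, as the files show it, is an area and so is larger for a wider peak. Dividing it by the width gave a mean height. The lists name no genes, the positions are not on the build for which annotation was used, and so regions are given by position and no gene or marker check of the cell types was made.

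Few SG-A regions were still listed in the haploid cells, and most of the haploid regions lay where SG-A were open. Of the 85773 SG-A regions, 3484 were listed in rST, or 4.06% (3.93 to 4.196). In the other direction, 4579 of the 6233 rST regions overlapped an SG-A region, or 73.5% (72.4 to 74.5). The rST list covered 0.0757% of the span of the autosomes and the SG-A list 1.54%. The pacSC list held 16.7% of SG-A regions, the list of the stage between. The level of the SG-A share rested on the rule and on list length. It was 0.563% when each region had to cover 50% of the other, and 37.6% for the 6233 SG-A regions of highest signal value. By overlap of at least 1 bp on the full autosomal lists, 6.49% of PriSG-A regions and 14.2% of pacSC regions were listed in rST. These lists have other lengths and unknown depths.

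The boundary of the overlap rule decided few cases. The smallest overlap of a shared SG-A region was 2 bp, and 7 shared regions overlapped by less than 25 bp. Just outside, 7 unshared SG-A regions lay within 25 bp of an rST region and 37 within 100 bp. Unshared SG-A regions lay a median of 177.7 kb from the nearest rST region, and unshared rST regions a median of 32.8 kb from the nearest SG-A region.

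SG-A regions listed in rST were the wide ones. Their median width was 1542.5 bp (quartiles 1110 and 1947), against 166 bp (95 and 442) for the 82289 that were not listed. The share listed in rST was 0.289% (0.234 to 0.358, 84 of 29039) among regions of up to 100 bp, far below the 4.06% over all SG-A regions. It was 0.666% for 100 to 200 bp and 1.21% for 200 to 400 bp, and reached 2.35% (2.08 to 2.66) for 400 to 800 bp. The step came above 800 bp. The share was 12.3% (11.7 to 12.97, 1261 of 10238) for 800 to 1600 bp and 33.5% (32.1 to 34.9, 1476 of 4412) for 1600 to 3200 bp. Among the 251 regions wider than 3200 bp it was 49.4% (43.3 to 55.5). Regions of 800 to 1600 bp made up 11.9% of the SG-A list and 36.2% of those listed in rST, and regions of 1600 to 3200 bp 5.14% and 42.4%.

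A wide region has more bases with which to meet an rST region, so the same classes were counted by whether the SG-A summit, a single base, lay in an rST region. This share was 3.2% over all SG-A regions. It was 0.269% (0.215 to 0.335) in the narrowest class, 9.28% (8.73 to 9.86) for 800 to 1600 bp, 26.6% (25.3 to 27.9) for 1600 to 3200 bp and 37.1% (31.3 to 43.2) in the widest. The order of the classes was the same by overlap and by summit. Without the 7 windows of 1 Mb that were densest in rST regions, described below, the widest class fell to 40.7% by overlap.

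**Figure D1:**
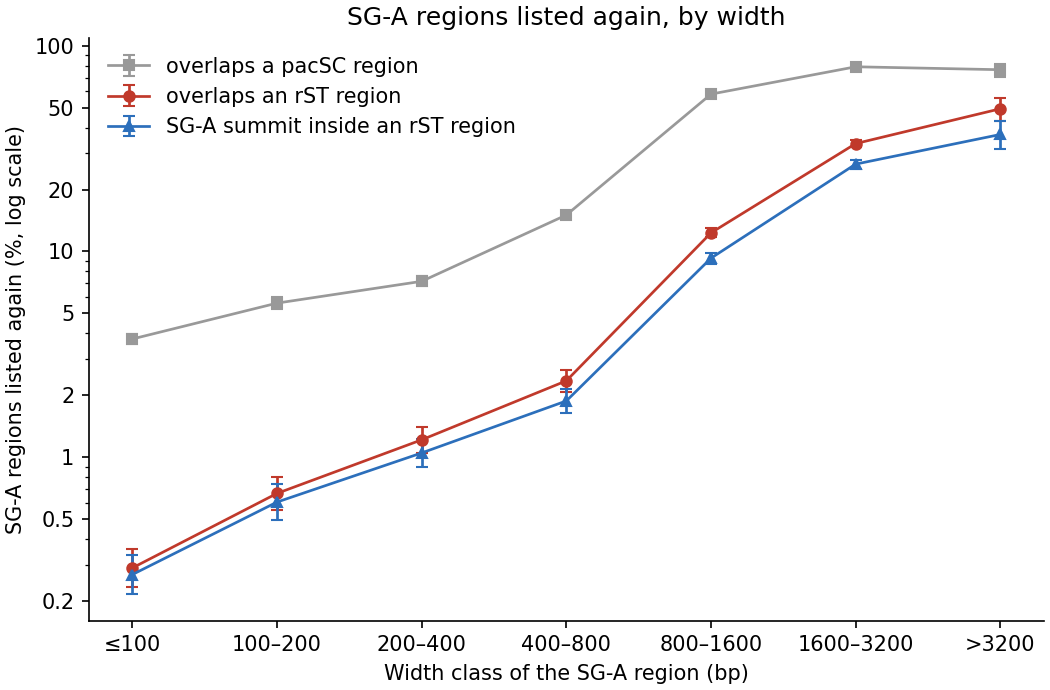
Share of SG-A regions listed again, on a log scale, by width class in bp. Red circles are overlap with rST, blue triangles the SG-A summit inside an rST region, grey squares overlap with pacSC, and bars are 95% Wilson intervals. The rST share was 2.35% for 400 to 800 bp and 12.3% for 800 to 1600 bp.

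Height was related to listing as well, and mostly at its upper end. The SG-A regions were divided into 5 equal groups by mean height. The lowest 20% were listed in rST in 0.338% of cases (0.262 to 0.437) and the group below the highest in 0.979% (0.843 to 1.14). In the highest 20%, with a mean height of 1.33 or more, 18.1% (17.5 to 18.7, 3100 of 17155) were listed, and these made up 88.98% of all SG-A regions listed in rST. The relation went on inside that group. Divided again into 5 by height, its parts were listed in 2.91%, 4.14%, 9.50%, 21.5% and 52.3% (50.7 to 54.0) of cases.

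Width and height rise together in the SG-A list, and listing was compared by each within groups of the other. These groups hold the other only in part. The highest 20% by height runs from 1.33 to 56.6, so differences by width inside it can still carry height. In the lowest 20% by height the share stayed between 0.260% and 0.456% in the classes up to 800 bp. In the highest 20% by height, the share was 4.27% for regions of 100 to 200 bp, 11.9% for 200 to 400 bp, 7.02% for 400 to 800 bp, 14.9% for 800 to 1600 bp and 34.3% for 1600 to 3200 bp. The order by width was therefore broken between 200 and 800 bp, where the intervals were 9.77 to 14.4 and 6.05 to 8.13. None of the 100 regions of up to 100 bp in that height group was listed, which allows a share of up to 3.70% by the Wilson interval. Within the class of 1600 to 3200 bp, 13.0% (8.57 to 19.2, 20 of 154) of the regions in the next lower height group were listed. Listed regions in that class had a median height of 4.196 (quartiles 3.46 and 4.91), and those not listed had 2.91 (2.201 and 3.62). For 800 to 1600 bp the medians were 3.75 and 2.17. In the narrowest class they were close, at 0.523 and 0.464. With the 5 height groups formed within each width class, the lowest was listed in 1.17% of cases and the highest in 10.4%.

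**Figure D2:**
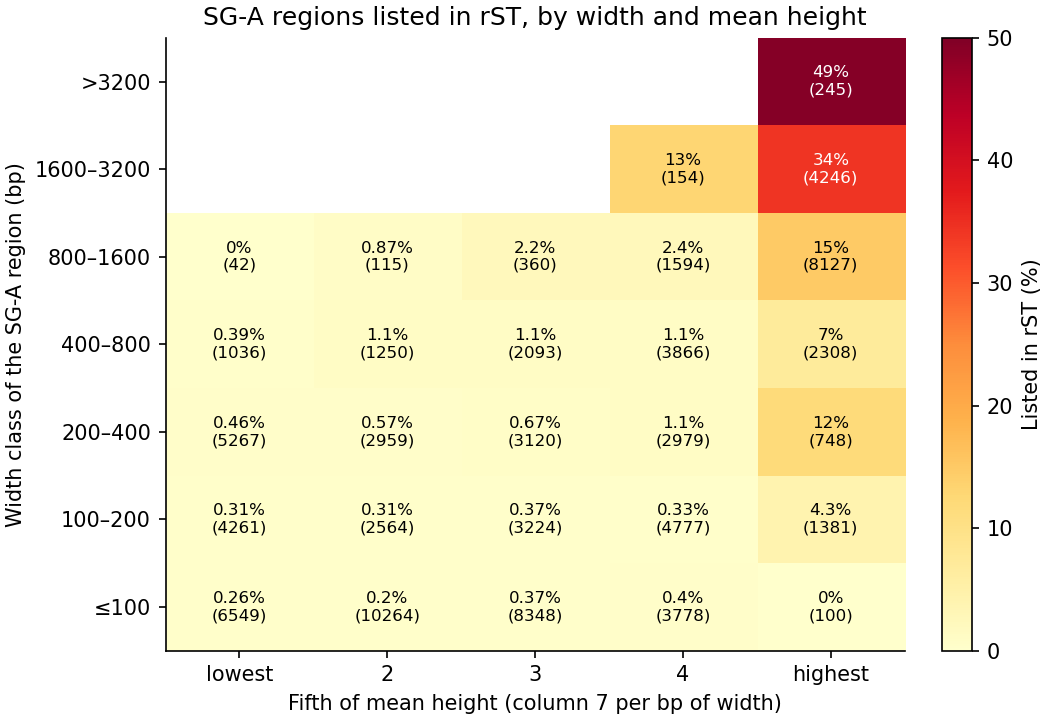
Percent of SG-A regions listed in rST for each width class in bp (vertical) and each 20% of mean height (horizontal), with the number of SG-A regions in brackets. Cells with fewer than 20 regions are blank. The cell of 1600 to 3200 bp and highest height stood at 34.3%, and cells outside the highest 20% stayed at or below 13.0%.

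The regions of highest signal value that were listed in rST kept almost their whole extent in the later list in some cases. In others they met several rST regions. On chromosome 1, the SG-A region from 24618324 to 24623073 was 4750 bp wide with a mean height of 56.6, and its rST counterpart ran from 24618324 to 24623071 with a mean height of 29.8. The SG-A region on chromosome 17 from 39979875 to 39985839 (5965 bp) had an rST counterpart of 5942 bp. On chromosome 11 the SG-A region from 3026865 to 3048932 (22068 bp) met 1 rST region of 21826 bp. The region of highest signal value, on chromosome 9 from 3005573 to 3038390 (32818 bp), met 14 rST regions, the strongest of them 7072 bp wide. Another on chromosome 11, from 3052095 to 3080456, met 6. All 5 were also listed in pacSC and PriSG-A, as were 76.5% and 100% of all SG-A regions over 3200 bp. How many copies of these 5 sequences the genome holds was not tested.

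The highest regions formed a small set. There were 39 SG-A regions with a mean height of 10 or more, on 15 chromosomes. All 39 were listed in rST, in pacSC and in PriSG-A. Over all SG-A regions 4.06% were in rST and 16.7% in pacSC. Of the 733 at heights of 5 to 10, 573 (78.2%) were in rST and 729 in pacSC. Listing in pacSC was thus not particular to the 39, and the rST share was already high below them. On chromosome 2, the region from 98506329 to 98507551 had a mean height of 55.6 in SG-A and 26.6 in rST, and the widths were 1223 bp and 1209 bp. The next by height lay on chromosome 12 from 3109806 to 3110181 (44.8 in SG-A, 20.2 in rST), on chromosome 9 from 35112747 to 35113244 (43.3 and 18.95) and on chromosome 6 from 103598982 to 103599363 (41.8 and 19.5). In 37 of the 39, SG-A and rST regions were each other's only partner. Their median width ratio, rST over SG-A, was 0.951, and their summits lay a median of 7 bp apart. Of the 39, 5 lay within 1 Mb of the low-coordinate end of the listed span, where mouse chromosomes carry the centromere. How heights were scaled between lists is unknown, so the lower rST values describe the lists only. The number of copies of these sequences in the genome was not tested.

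As all 39 SG-A regions with a mean height of 10 or more were listed in rST, no missing region reached that height. The SG-A regions of highest signal value that were missing from rST were wide, which ranking by an area favours. They lay on chromosome 17 from 34253879 to 34260175 (6297 bp, mean height 4.11), chromosome 7 from 6679728 to 6683816 (5.48), chromosome 1 from 88421297 to 88425668 (5.05), chromosome 5 from 58105252 to 58111857 (3.16) and chromosome 11 from 74642752 to 74646949 (4.87). The nearest rST region was 90.2 kb or more from each. All 5 were listed in PriSG-A and in pacSC. The pacSC regions over them were 361 bp, 2567 bp, 129 bp, 100 bp and 420 bp wide, so that 4 of the 5 were met by a pacSC region under 500 bp. Of all SG-A regions over 3200 bp, 100% were in PriSG-A and 76.5% in pacSC. The pacSC partners in that class had a median width of 724 bp.

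Where a region was kept, little of its width was. Among 2574 pairs in which the SG-A and the rST region were each other's only partner, the median width was 1465.5 bp in SG-A and 238 bp in rST. The rST region was the narrower in 95.3% of pairs. The median ratio of widths was 0.188 (quartiles 0.0913 and 0.404), and 723 pairs (28.1%) had a ratio under 0.1. A ratio of at least 0.9 was found in 234 pairs (9.09%). These were mostly narrow, with a median SG-A width of 225 bp, and 26 of them had an SG-A region over 800 bp. rST regions were contained rather than offset: 4320 of the 4579 shared rST regions, or 94.3%, lay wholly inside an SG-A region. They covered 25.8% of the bases of the SG-A regions that they overlapped. Region width in a peak list can move with depth, and the part of depth in this narrowing was not tested.

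The width ratio differed with the height of the SG-A region, though not in 1 direction and with SG-A width differing as well. In pairs with an SG-A mean height under 1 the median ratio was 0.71, on SG-A regions of a median 264 bp. It was 0.418 at heights of 1 to 2, 0.110 at 2 to 3, 0.126 at 3 to 4, 0.173 at 4 to 5 and 0.29 at 5 to 10. The median SG-A width in these height ranges was 264 bp, 701 bp, 1281 bp, 1556 bp, 1678 bp and 1641.5 bp. The fall of the ratio from 0.71 to 0.110 thus went with wider SG-A regions. The median rST width in these height ranges was 118 bp, 215 bp, 130 bp, 204 bp, 282 bp and 381 bp. From 2 upward, higher SG-A regions thus met wider rST regions. Over the 2574 pairs the rank correlation of SG-A with rST height was 0.191 and of widths 0.192. It was 0.512 for height over 10459 SG-A with pacSC pairs. These are descriptions across regions that share their libraries.

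**Figure D3:**
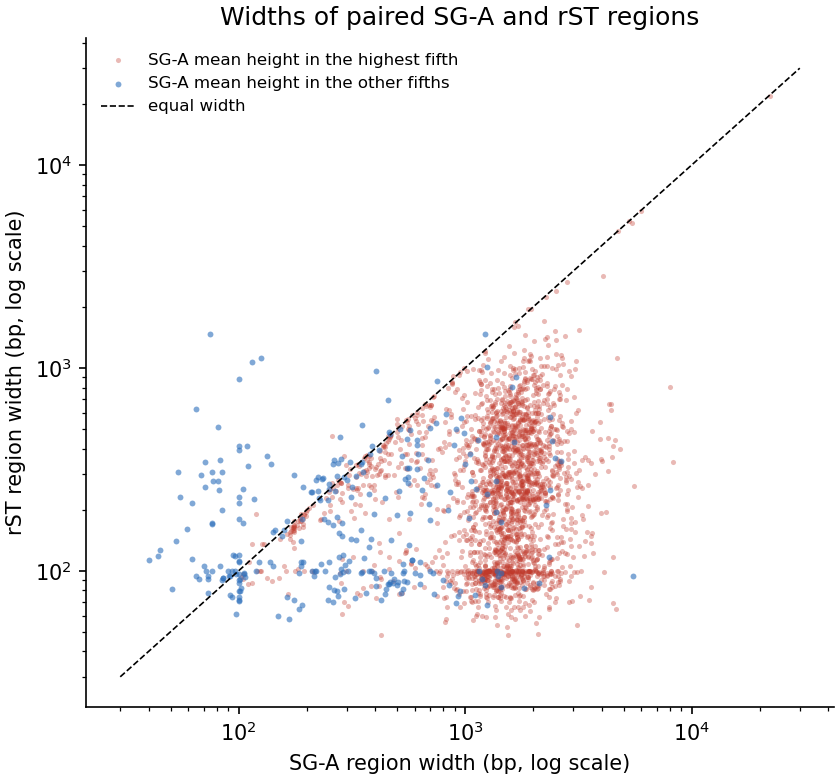
Width in bp of each rST region (vertical, log scale) against its SG-A partner (horizontal, log scale) for the 2574 only-partner pairs. Red points have an SG-A mean height in the highest 20%, blue points a lower one, and the dashed line is equal width. Most points lie below the line, with a median ratio of 0.188.

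Some SG-A regions held several rST regions. Of the 3484 SG-A regions listed in rST, 2634 met 1 rST region, 694 met 2, 113 met 3 and 43 met 4 or more, up to 18. Meeting several was more frequent in wide regions, which have more room for them. None of the 84 listed regions of up to 100 bp or the 108 of 100 to 200 bp met 2 or more. The part of width alone and that of depth were not tested. The share with 2 or more was 21.1% for 800 to 1600 bp, 32.1% for 1600 to 3200 bp and 58.1% (72 of 124) above 3200 bp. The reverse was rare: 26 rST regions met 2 SG-A regions and 4 met 3 or more.

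The point of highest signal stayed close to where it had been in spermatogonia. In the 2574 pairs the summits lay a median of 62 bp apart (quartiles 17 and 151), with 44.9% within 50 bp, 64.5% within 100 bp and 83.5% within 200 bp. Set against the width of the SG-A region, the median distance was 4.86% of that width. This figure came mostly from wide regions. It was 43.5% for SG-A regions of up to 100 bp, 17.0% for 100 to 200 bp and 13.3% for 200 to 400 bp. For 1600 to 3200 bp it was 3.79%. In narrow regions overlap itself limits the distance, so short distances there say little. For SG-A regions over 800 bp, 92.6% of 2043 rST summits lay in the middle part of the SG-A region, between 25% and 75% of its width. The SG-A summits themselves lay there in 93.7%. The distance grew slowly with width, from medians of 32 bp for the narrowest SG-A regions and 26 bp for 100 to 200 bp to 61 bp for 800 to 1600 bp, 75 bp for 1600 to 3200 bp and 117 bp above. With every overlapping pair counted, including the SG-A regions met by several rST regions, the median was 104 bp.

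Distances in SG-A with rST pairs did not fall off evenly, though the step was small and no interval was computed for it. In bins of 25 bp, 30.1% of pairs lay under 25 bp and 4.66% (120 pairs) between 100 and 125 bp. The next bins held 5.52% (142) and 5.09% (131). SG-A with pacSC pairs showed the same order, with 4.13% at 100 to 125 bp and 5.19% and 4.97% in the following bins. In pacSC with rST pairs these shares were 3.59%, 3.73% and 4.09%, and in PriSG-A with SG-A pairs 3.94%, 4.55% and 4.55%. PriSG-A with rST pairs went the other way and fell throughout, with 6.17%, 5.64% and 5.11%. The lists of 1 stage enter more than 1 of these comparisons.

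**Figure D4:**
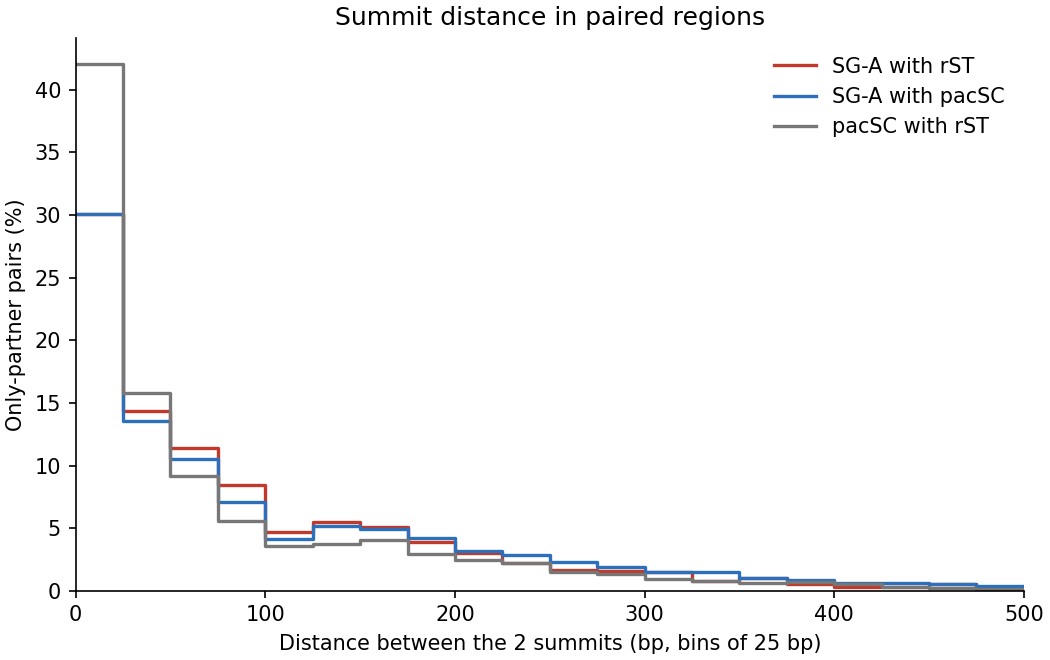
Distance in bp between the summits of only-partner pairs, in bins of 25 bp, as a percent of pairs. Red is SG-A with rST (2574 pairs), blue SG-A with pacSC (10459) and grey pacSC with rST (3645). Pairs under 25 bp made up 30.1%, 30.1% and 42.1%.

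Single pairs illustrate both ends of the range. Summits stayed within 10 bp in 464 pairs. On chromosome 13 the SG-A region from 74665876 to 74668391 (2516 bp) and its rST partner (2401 bp) had summits 1 bp apart, and on chromosome 15 the region from 74915879 to 74917527 had a shift of 5 bp. The 2 regions on chromosome 9 from 2999936 to 3005404 and from 35112747 to 35113244 and the one on chromosome 2 from 98502333 to 98503204 had a shift of 0 bp. At the other end, the 22068 bp region on chromosome 11 had summits 10671 bp apart. On chromosome 8, the region from 79422487 to 79426981 met a 69 bp rST region 2696 bp from its summit, and the region from 11554790 to 11558772 met one 2179 bp away. On chromosomes 18 and 4, the regions from 39648471 to 39651667 and from 146773511 to 146777975 had shifts of 1863 bp and 1697 bp. Apart from the one on chromosome 11, these long shifts belonged to rST regions of 69 bp to 363 bp inside SG-A regions of 3197 bp to 4495 bp.

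The pacSC list held nearly all regions that SG-A and rST had in common. Of the 4579 rST regions listed in SG-A, 4215 were also listed in pacSC, or 92.1% (91.2 to 92.8), against 87.9% of all rST regions and 76.5% (74.4 to 78.5, 1266 of 1654) of those not in SG-A. Counted over SG-A regions, 3306 of 3484 overlapped a pacSC region themselves, or 94.9% (94.1 to 95.6). Of the SG-A regions not listed in rST, 13.4% (13.1 to 13.6) were in pacSC. PriSG-A held 96.1% of the SG-A regions listed in rST and 35.3% of the others. These groups differ in width and height, as given above.

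At every width, SG-A regions that pacSC did not list were found in rST less often than those it listed. Over all SG-A regions, 23.1% (22.4 to 23.8) of those in pacSC and 0.249% (0.215 to 0.288) of those not in pacSC were listed in rST. For 800 to 1600 bp the shares were 20.5% (19.5 to 21.6) and 0.865% (0.628 to 1.19), and for 1600 to 3200 bp 41.5% (39.9 to 43.2) and 2.92% (2.02 to 4.22). Above 3200 bp they were 59.9% (52.8 to 66.6) and 15.3% (8.24 to 26.5). In the narrowest class they were 6.33% (5.03 to 7.93) and 0.0537% (0.0325 to 0.0885). Regions in pacSC were also higher than the others of their class, with a median SG-A height of 3.58 against 2.25 for 1600 to 3200 bp.

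How wide the pacSC region was went with the outcome in rST. SG-A regions whose widest pacSC partner measured up to 100 bp were listed in rST in 3.35% of cases (2.57 to 4.37). With a pacSC partner of 400 to 800 bp the share was 22.8% (21.5 to 24.1), and with one of 800 to 1600 bp it was 46.3% (44.6 to 47.9). This held within a class of SG-A width, but SG-A height, which also went with listing in rST, was not matched. Among SG-A regions of 1600 to 3200 bp, those with a pacSC partner of up to 818 bp, the class median, were listed in 22.7% (20.8 to 24.7), and those with a wider partner in 60.4% (58.1 to 62.7). For 800 to 1600 bp, with a median of 529 bp, the shares were 7.58% and 33.5%.

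In 1880 chains, SG-A, pacSC and rST regions were each other's only partner at both steps. Their median widths were 1440.5 bp, 838 bp and 247 bp. Width fell at each step in 1530 of them, or 81.4%. Median summit distances were 54 bp from SG-A to pacSC, 46 bp from pacSC to rST and 58 bp from SG-A to rST, and in 541 chains (28.8%) all 3 summits lay within 50 bp. The rST summit was nearer to the pacSC summit in 953 chains and nearer to the SG-A summit in 864. In the 695 chains where the SG-A and pacSC summits were more than 100 bp apart, the counts were 350 and 343. Among these more distant summits the spermatid summit thus lay about as often on the SG-A side as on the pacSC side.

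The regions that skipped pacSC were few and lay together. In 173 of the 3484 SG-A regions listed in rST, or 4.97% (4.29 to 5.74), neither the SG-A region nor any rST partner overlapped a pacSC region. They had a median width of 621 bp and a median height of 1.17, and 152 of them (87.9%) were in PriSG-A. Of the 173, 85 lay on chromosome 1, 28 on chromosome 5 and 15 on chromosome 7. The nearest pacSC region was a median of 12401 bp away, and within 1000 bp in 36. The median height of their rST partners was 0.357, against 0.474 for the partners of the other shared regions.

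Most of them lay in 7 windows of 1 Mb that held at least 30 rST regions each. These windows held 103 of the 173, and 45.8% (39.4 to 52.3) of the 225 shared SG-A regions in them skipped pacSC, against 2.15% (1.70 to 2.70, 70 of 3259) elsewhere. On chromosome 1 from 85000001 to 86000000, 57 of 198 SG-A regions were listed in rST, 44 of them without pacSC. From 87000001 to 88000000 the counts were 30 of 165 and 23. On chromosome 5 from 15000001 to 16000000, 49 of 122 were listed and 18 skipped pacSC, and from 14000001 to 15000000 25 of 86 and 6. On chromosome 7 from 67000001 to 68000000 the counts were 27 of 57 and 12. The other two windows, on chromosome 8 from 19000001 to 20000000 and chromosome 6 from 47000001 to 48000000, had 23 and 14 shared SG-A regions, and pacSC held them all. pacSC regions were fewest in the windows of chromosomes 1 and 7 (22 to 25) and numbered 132 in that of chromosome 8. The windows were chosen by their number of rST regions, so their higher share in rST is no finding. It was 26.6%, against 3.84% elsewhere. The same choice bears on the number that skipped pacSC, which is a description only. That number was not matched for width or height either. In only-partner pairs, SG-A regions in the windows had a median width of 850 bp and height of 1.57. Elsewhere these medians were 1487 bp and 3.83.

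Outside these windows the skipped regions of highest signal value were in pairs or alone. On chromosome 1, the neighbours from 173001226 to 173005410 and from 173007525 to 173012996 met 3 and 5 rST regions, 5079 bp and 11378 bp from the nearest pacSC region. On chromosome 3 the region from 68296756 to 68299976 met 2 rST regions, the stronger 91 bp wide, and lay 71059 bp from pacSC. On chromosome 14 the region from 94288446 to 94290973 met 1 rST region of 73 bp. The remaining one of the first 5, from 85105919 to 85110229 on chromosome 1, lay in a dense window and 953 bp from a pacSC region.

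The narrowest class gave 84 shared regions, and in these the rST region was often the wider. The bound of 100 bp favours that outcome, since the rST list had a median width of 183 bp. In 64 only-partner pairs the median width ratio was 1.47, and the rST region was narrower in 17.2%. Of the 5 with the highest mean height, the first lay on chromosome 4 from 88910609 to 88910708 (mean height 1.20) inside an rST region of 232 bp, and neither pacSC nor PriSG-A listed it. Another on chromosome 10, from 83162155 to 83162254, was also absent from both. Those on chromosome 10 from 28212772 to 28212871 and from 91850731 to 91850826, and on chromosome 6 from 144319270 to 144319369, were in pacSC. None of the 5 was in PriSG-A, which held 11.9% (3460 of 29039) of all SG-A regions of up to 100 bp.

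The 1654 rST regions without an SG-A counterpart were narrower than the others, with a median of 134 bp against 201 bp, and of nearly the same mean height, at 0.422 against 0.464. Wider rST regions were listed in SG-A more often, from 65.6% (63.3 to 67.9) for up to 100 bp to 88.8% (84.1 to 92.2) for 800 to 1600 bp, beside 73.5% over all rST regions. PriSG-A held 6.29% (5.22 to 7.56) of the 1654. An SG-A region lay within 1000 bp of 151 of them (9.13%). Those of highest signal value lay on chromosome 3 from 133014307 to 133016732 (2426 bp, mean height 2.86) and from 48189009 to 48191040 (1.92), chromosome 9 from 75738558 to 75739545 (3.36), chromosome 5 from 53425556 to 53427309 (1.64) and chromosome 2 from 65633346 to 65635039 (1.59). All 5 were in pacSC and none in PriSG-A. The nearest SG-A region was 12.7 kb or more from each.

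Autosomes differed in the share of SG-A regions still listed in rST. It was highest on chromosome 1 (6.31%, 5.72 to 6.94), chromosome 18 (5.42%, 4.62 to 6.34) and chromosome 3 (5.22%, 4.63 to 5.88), beside 4.06% over all. It was lowest on chromosome 11 (2.57%, 2.17 to 3.05), chromosome 7 (2.72%, 2.33 to 3.17) and chromosome 17 (2.79%, 2.33 to 3.34). These 3 did not have fewer wide regions. Regions over 1600 bp made up 6.10%, 5.98% and 5.97% of their SG-A lists, against 5.55% on chromosome 1 and 5.64% on chromosome 18.

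Each chromosome was then set against the number expected if its regions were listed at the autosomal rate of their width class and height group. Observed over expected was 1.64 (95% Poisson interval 1.49 to 1.82) on chromosome 1, 1.39 (1.18 to 1.64) on chromosome 18 and 1.33 on chromosome 3. It was 0.542 (0.456 to 0.644) on chromosome 11, 0.614 (0.525 to 0.717) on chromosome 7 and 0.656 (0.546 to 0.789) on chromosome 17. Without the dense windows chromosome 1 stood at 1.45, below chromosome 18 at 1.47. Chromosome 7 then stood lowest at 0.545, and chromosome 5 went from 1.06 to 0.82. Across the 19 chromosomes, which share their libraries, the rank correlation of the share in rST with the share in pacSC was -0.146. Chromosome 19 had the highest share in pacSC, 22.0%, and 4.12% in rST.

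**Figure D5:**
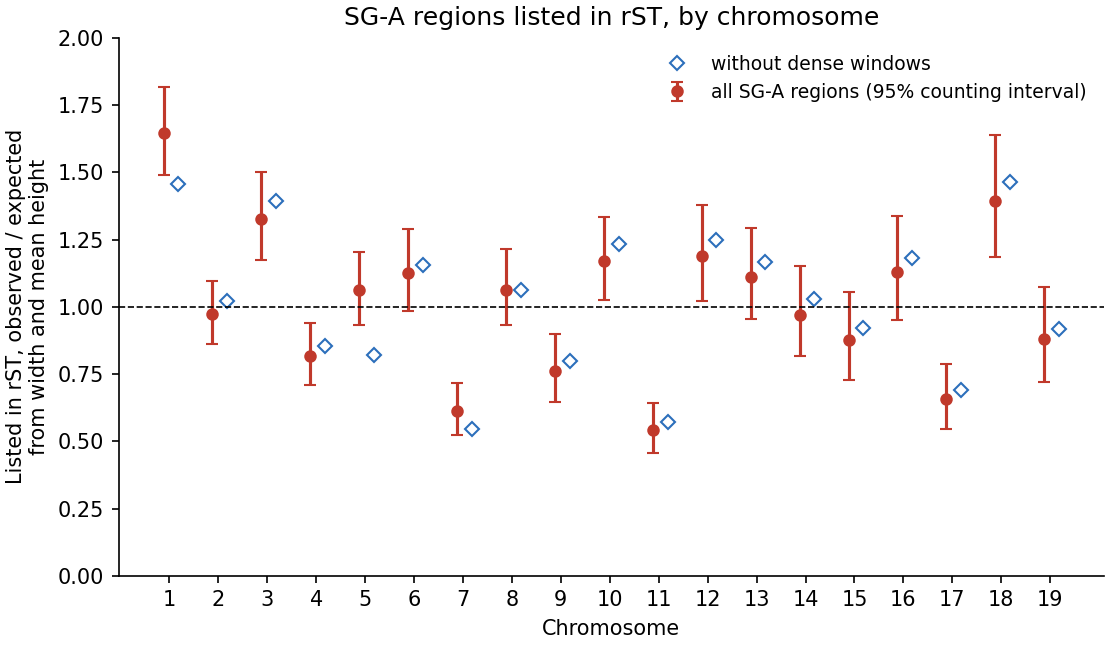
SG-A regions listed in rST on each chromosome, as observed over expected from width class and height group. Red points carry 95% Poisson intervals, open diamonds leave out the 7 dense windows, and the dashed line marks 1. Chromosome 1 stood highest at 1.64 and chromosome 11 lowest at 0.542.

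Position along the chromosome went with listing near the low-coordinate end, where the mouse centromere lies, and less at the distal end. In the proximal 10 Mb 2.82% (2.46 to 3.24, 195 of 6911) of SG-A regions were listed in rST, against 4.17% (4.03 to 4.31) elsewhere, a ratio of 0.677 (0.587 to 0.780 by a log interval). The share was lower there on 15 of 19 chromosomes. It was lowest between 1 and 5 Mb, at 2.14% (1.67 to 2.74), which was 0.508 (0.396 to 0.652) of the number expected from width and height. In the first 1 Mb it was 4.57%, and between 10 and 20 Mb 5.63% with the dense windows and 4.24% without. With a zone of 20 Mb the ratio was 1.01, and 0.883 without dense windows. SG-A regions in the proximal 10 Mb were in pacSC in 20.8% of cases, against 16.3% elsewhere.

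At the distal end, SG-A regions were listed more often in pacSC, while the direction of the difference in rST depended on the zone and the setting. In the distal 10 Mb 27.2% were in pacSC, against 15.4% elsewhere, and 3.84% (3.47 to 4.26) were in rST, against 4.09% (3.95 to 4.23). The rST ratio was 0.941 (0.844 to 1.048). It was 1.002 (0.899 to 1.12) without the dense windows and 1.01 when standardised to width class and height group. For the distal 20 Mb it was 0.854 (0.783 to 0.932). In the last 1 Mb 46.8% of the 806 SG-A regions were in pacSC and 5.83% (4.41 to 7.67) in rST, 1.17 (0.879 to 1.56) times the number expected. For the distal 5 Mb it was 1.13 (0.982 to 1.29). Of SG-A regions in pacSC and not in rST, 19.6% lay in the distal 10 Mb, against 10.6% of those in both and 9.39% of those in neither.

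Shared regions were otherwise spread widely. Of 2409 windows of 1 Mb with an SG-A region, 1552 (64.4%) held at least 1 region listed in rST, with a median of 2 in those windows.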

How the data were processed

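The data were 4 ATAC-seq peak lists deposited by the authors, 1 per stage for all its libraries. The calling software, its settings and any pooling of replicates were not given in the sources used here. Separately, the submitters' processing notes name mm10, Bowtie2 2.2.5, Bowtie and SAMtools, with no step attached. Listed peaks ended past the last gene of a GRCm38 table on 10 of 19 autosomes, by up to 7.20 Mb on chromosome 7. Positions were therefore taken not to be on mm10. They are given as the files have them, 1-based, and no gene or sequence was matched.

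In the deposited lists, the score was 1000 times the signal value over the width, capped at 1000 (100% of peaks, tolerance 1). The deposited signal was thus an area over the peak, and it was divided by width. The deposited −log10 q served alternatives only. The deposited summit offset, of another kind of unit, was added to the start. The PriSG-A list was assigned by exclusion, its name being garbled.

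Overlaps were counted in Python 3.11.15 with numpy 2.4.6 and pandas 2.3.3, and checked on simulated lists. Width classes were bounded at 100, 200, 400, 800, 1600 and 3200 bp. Regions were named by rank of signal value, height or summit distance, 5 per rule. Distances to chromosome ends were measured from the listed span. Members, classes and rules were chosen with earlier results of these data known. The set of regions with a height of 10 or more was singled out after its values were seen.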

Additional observations from a re-analysis of the deposited data

How the results depend on the processing

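Under the alternatives 61 values were recomputed: 25 fell inside the interval of the reported value, or within 1.5 times a reported number, 31 fell outside and 5 turned direction. The cause was not tested, beyond the fewer regions or stricter overlap that a setting itself brings. The settings with 20 height groups, for the width ratio, the chromosomes and the number skipping pacSC were chosen after the data were seen. No paired analysis was possible because replicates of a stage share 1 list, which also precludes leaving replicates out. No SG-A region of up to 100 bp had a −log10 q of 5, so that setting gave no value there. Unknown depth limits every count of listed regions.

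With a reciprocal overlap of 50%, 0.563% of SG-A regions were listed in rST, 7.75% of rST regions in SG-A, 0.114% of the narrowest and 4.38% of the widest SG-A class, and 51 regions skipped pacSC. By the SG-A summit the share was 3.20% over all, 37.1% in the widest class and 14.3% in the highest 20% by height. Requiring a −log10 q of 5 on both sides gave 0.917% of 15598 SG-A and 94.3% of 176 rST regions. Few of the 6233 rST regions reached that q, which limits the first share. Requiring it in SG-A alone gave 19.5%, with pacSC holding 94.7%. SG-A cut to the rST length gave 37.6% by area and 39.0% by area per bp, and 52.7% of rST regions. Counting each 100 kb window once gave 16.1%. Without dense windows the values were 3.84% of SG-A, 71.7% of rST, 40.7% of the widest class, 17.4% of the highest 20%, 96.9% held by pacSC, 1.45 for chromosome 1 and 70 regions skipping pacSC. Without regions over 5000 bp 71.0% of rST regions were in SG-A. Height groups within width classes gave 1.17% and 10.4%. The median summit distance was 104 bp over all pairs and 32 bp with both regions under 600 bp. pacSC held 94.9% by the SG-A region and 94.8% within 1000 bp. The summed rST width gave a ratio of 0.211. The ratio of shares for the distal 10 Mb, 0.941 with an interval that includes 1, crossed 1 in 4 settings: 1.13 for 5 Mb, 1.002 without dense windows, 1.01 when standardised to width class and height group and 1.04 with 20 height groups. The proximal ratio crossed it at 20 Mb, with 1.01.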

Other observations

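The autosomal counts leave out the sex chromosomes. Over all widths the share listed in rST was near the autosomal one on X and higher on Y. Among wide regions it was lower on X. On X, 110 of 2481 SG-A regions were listed, or 4.43% (95% Wilson interval 3.69 to 5.32). Among X regions wider than 800 bp the share was 9.14% (6.95 to 11.9, 47 of 514), against 19.2% (18.6 to 19.8, 2861 of 14901) on chromosomes 1 to 19. On Y, 18 of 115 SG-A regions were listed, or 15.7% (10.1 to 23.4), and of those wider than 800 bp 8 of 17, or 47.1% (26.2 to 69.0). Over all widths, the autosomal share was 4.06%. The rST regions there were almost contained in the SG-A list, with 171 of 172 on X and 53 of 54 on Y, against 73.5% on chromosomes 1 to 19. These shares come from 1 list per stage and are not matched for height.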
